A study of Mus musculus with 6 samples.

Results

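A set of Toll-like receptor genes, with the coreceptor gene Cd14 and the adaptor gene Myd88, was examined in cultured mouse megakaryocytes with and without a Gata-1 knock down. The members were the probe sets whose platform annotation named only 1 of the 10 genes Tlr1, Tlr2, Tlr3, Tlr4, Tlr6, Tlr7, Tlr8, Tlr9, Cd14 and Myd88, which gave 16 probe sets of 45101 on the array. Megakaryocytes are the large marrow and fetal liver cells that shed platelets, and GATA1 is a zinc finger transcription factor of the megakaryocyte and red cell lineages. In both groups, progenitors from mouse fetal livers at embryonic day 13.5 had been cultured into megakaryocytes and then collected on a gradient of bovine serum albumin, per the labels. One group of 3 arrays was titled Gata-1 Knock Down and the other, also of 3 arrays, Gata-1 Wild Type, with replicates A, B and C in each. How the knock down was made, the mouse strain, the sex of the embryos, the culture medium's factors and whether RNA of several embryos was pooled were not stated in the sources used here. Nothing in the labels ties the letters to separate cultures or animals, so the spread behind each p-value may be technical.

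Toll-like receptors are sentinel receptors of the innate immune system that recognise microbial molecules. Those on the cell surface bind lipoproteins or lipopolysaccharide, while those in endosomes bind RNA or DNA. CD14 hands lipopolysaccharide to the complex of TLR4 with MD-2. Except for TLR3, each of the receptors examined passes its signal through the adaptor MYD88 to IRAK kinases, TRAF6 and NF-kB. Macrophages, monocytes and neutrophils carry these receptors in abundance, and megakaryocytes and platelets are known to carry some of them.

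All 6 arrays had been scaled by the authors to the same trimmed mean, and the number of arrays limits the precision. Array medians lay between 101.6 and 137.8, the highest on knockdown B, and the highest signal of the bacterial control probe sets, which read RNA absent from mouse cells and served here as the background, was 132 on knockdown B and 60.7 to 82.2 on the other arrays. Gata1 itself, with 1 probe set, had signals of 153.5, 143.3 and 194.7 in knockdown against 8723.7, 8246.5 and 8495.6 in the wild-type arrays. Megakaryocyte identity was checked on 14 markers with a probe set. None of the 14 was within background on all arrays of either group, and their summed signal was 136884 to 168248 in knockdown and 190193 to 202224 in wild type. Pf4 and Itga2b, which encode the chemokine PF4 and the platelet integrin subunit alpha IIb, were among the brightest, with wild-type means of 17120 ± 811 and 18477 ± 662 (SD, n = 3).

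Signals given below are as deposited, on a linear scale. Log2 fold changes are knockdown minus wild type, on quantile normalized log2(signal + 32), with standard errors and adjusted p from limma. Of the 16 member probe sets, 13 passed the filter on dim probe sets and were tested. Of these, 7 were lower in knockdown at an adjusted p under 0.05, 0 were higher and 6 did not pass, while over all 31526 probe sets tested 14.3% were lower, 16.1% were higher and 30.4% were called in either direction. With arrays scaled to a common median instead, 16.9% of probe sets were lower and 8.28% higher, and the same number of member probe sets, 7 and 0, were called. The 7 probe sets belonged to 6 of the 9 genes with a tested probe set, namely Cd14, Tlr1, Tlr2, Tlr4, Tlr8 and Myd88. The probe sets of Tlr1 and Tlr8 and 2 of those of Tlr4 passed the filter through their wild-type level, since their mean in knockdown lay below its limit, and 3 of these 4 were among the 7. Of the 9 with both group means at or above the limit, 4 were lower, 0 were higher and 5 did not pass. The share of all probe sets under that same restriction was not computed, and the 14.3% is not its match. On the deposited signals, each knockdown array lay below each wild-type array for the same 7 probe sets, which was true of 16.9% of all probe sets tested. In bulk RNA, fewer cells of a type that carries a transcript and less of it per cell cannot be told apart.

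**Figure D1:**
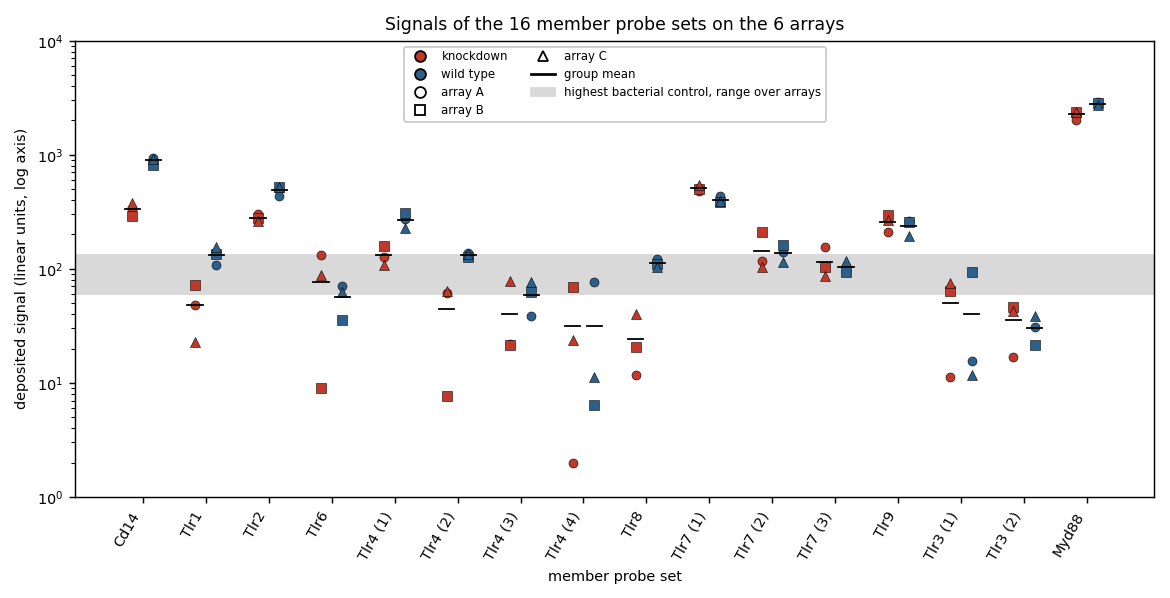
Deposited signal of each of the 16 member probe sets (log axis) on the 3 knockdown and 3 wild-type arrays, with group means as bars. Numbers in brackets order a gene's probe sets from the brightest. Cd14, Tlr1, Tlr2, Tlr8, Myd88 and the 2 brightest probe sets of Tlr4 show all knockdown points below all wild-type points. The grey band spans 60.7 to 132, the highest bacterial control signal of each array.

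Promoter windows from RefSeq (GRCm38.p6), 250 bases before to 50 after an annotated transcription start, were matched by symbol to 7 of the 10 genes, with 9 windows in all. Those of the 4 genes that were lower in knockdown and had a window are shown, since they are the stretches next to the start of the transcripts that differed. Tlr1 had 2 windows, of which the upstream one is given. Capitals mark matches to 4 motifs searched on both strands. These were the GATA motif in the forms AGATAA and TGATAA and the same with G as the last base, the core GAGGAA bound by PU.1 of the ETS family, the NF-kB consensus, and a pair of GAAA with any 2 bases between them, bound by interferon regulatory factors.
Tlr1 (chr5:64933509-64933808, minus strand): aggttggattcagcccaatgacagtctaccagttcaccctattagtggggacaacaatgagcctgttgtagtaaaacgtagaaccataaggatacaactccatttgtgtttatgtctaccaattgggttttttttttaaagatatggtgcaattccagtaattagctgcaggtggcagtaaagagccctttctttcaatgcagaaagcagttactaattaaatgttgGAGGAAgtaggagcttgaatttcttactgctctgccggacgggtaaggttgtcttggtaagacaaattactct
Tlr2 (chr3:83841559-83841858, minus strand): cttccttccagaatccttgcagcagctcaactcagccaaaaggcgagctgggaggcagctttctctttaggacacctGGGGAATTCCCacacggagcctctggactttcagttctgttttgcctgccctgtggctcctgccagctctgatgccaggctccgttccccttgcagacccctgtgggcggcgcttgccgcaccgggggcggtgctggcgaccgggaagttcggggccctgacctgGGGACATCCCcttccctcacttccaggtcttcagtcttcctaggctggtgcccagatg
Tlr8 (chrX:167264280-167264579, minus strand): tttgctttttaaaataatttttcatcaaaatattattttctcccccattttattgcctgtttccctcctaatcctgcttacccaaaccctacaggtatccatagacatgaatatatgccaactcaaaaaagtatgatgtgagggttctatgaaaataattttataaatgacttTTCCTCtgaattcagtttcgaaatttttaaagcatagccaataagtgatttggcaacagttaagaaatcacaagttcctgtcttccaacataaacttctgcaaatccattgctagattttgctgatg
Myd88 (chr9:119339969-119340268, minus strand): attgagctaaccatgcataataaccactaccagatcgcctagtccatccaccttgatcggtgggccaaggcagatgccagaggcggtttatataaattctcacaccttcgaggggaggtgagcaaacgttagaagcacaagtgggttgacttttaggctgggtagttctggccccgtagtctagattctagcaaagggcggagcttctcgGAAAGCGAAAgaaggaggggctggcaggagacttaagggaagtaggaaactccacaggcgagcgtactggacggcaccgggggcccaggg

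The Tlr2 window held 3 matches to the NF-kB consensus, 2 of which overlap by all but 1 base. Windows with such a match made up 4.51% of all 32851 in the table. The Myd88 window held 1 match to the interferon regulatory motif, found in 3.44% of all windows. The upstream Tlr1 window and the Tlr8 window each held 1 PU.1 core, as did 28.3% of all windows. No match of one motif overlapped one of another in these 4 windows. None of them held the GATA motif, which 29.8% of all windows held. Among the members' other windows it was found in the downstream one of Tlr1 and in those of Tlr3 and Tlr9. A match is a description of the letters and not a measured site, and none says only that those letters are not in this window. Which start these cells used was not measured.

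Among the receptors and the coreceptor of the cell surface, Cd14 had the clearest difference. Its probe set (1417268_at) read 336.4, 292.6 and 375.2 in knockdown A, B and C and 941.8, 811.6 and 926.4 in wild type A, B and C. The groups were well apart, the brightest knockdown array lying below the dimmest wild-type array. Cd14 fell by 1.42 on the log2 scale, from a mean of 893 ± 71.1 to 335 ± 41.3 (SD, n = 3), 2.68-fold lower (SE 0.12, limma adjusted p 1.42e-05). In wild type it stood at 14.0 times the background signal, averaged over the arrays, and at 82.1 to 83.8% in the order of all signals of an array, against 66.8 to 71.2% in knockdown.

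Tlr4 encodes the lipopolysaccharide receptor that CD14 serves, and it had 4 probe sets. The brightest (1418163_at) read 127.6, 159.7 and 108.2 in knockdown and 273.7, 307.5 and 228.7 in wild type, again with no overlap. It fell by 1.04 on the log2 scale (SE 0.17, limma adjusted p 0.00102), 2.06-fold lower. A second probe set of Tlr4 (1418162_at) read 61.5, 7.7 and 64.0 in knockdown, within background on each array, and 137.8, 128.0 and 133.8 in wild type. For that probe set the change is only a bound, at least 1.47-fold lower (fitted log2 fold change -1.35 ± 0.36 SE, limma adjusted p 0.0169). Each such bound sets the wild-type mean against the higher, on each knockdown array, of the probe set's own signal and the background. Bounds are on the quantile normalized log2(signal + 32) scale and not on the deposited signals. The call of 1418162_at was lost when any 1 wild-type array was left out, with adjusted p of 0.0529 to 0.0625 by limma. It was also lost with an offset of 1 in place of 32 (0.0575). The third (1442827_at) gave -0.53 with a 95% interval of -1.38 to 0.32 and did not pass, and the dimmest (1430695_at) was too dim to be tested, at 2.0 to 68.7 in knockdown and 6.4 to 76.6 in wild type. Both were within background on all 3 knockdown arrays and on 2 of 3 wild-type arrays.

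Tlr2 encodes the receptor for bacterial lipoproteins, which pairs with TLR1 or TLR6. Its probe set (1419132_at) read 301.9, 278.6 and 261.7 in knockdown and 438.5, 519.4 and 526.4 in wild type. Tlr2 fell by 0.86 on the log2 scale, from 495 ± 48.9 to 281 ± 20.2 (SD, n = 3), 1.82-fold lower (SE 0.12, limma adjusted p 0.000429), with no overlap between groups. The partner gene Tlr1 (1449049_at) read 48.4, 72.4 and 22.6 in knockdown, within background on each array, and 108.1, 133.9 and 156.0 in wild type, above it on each. It was at least 1.45-fold lower in knockdown (fitted log2 fold change -1.26 ± 0.28 SE, limma adjusted p 0.00589). The other partner, Tlr6, lies next to Tlr1 on chromosome 5 in the gene order of GRCm38.p6. Its probe set (1421352_at) read 132.4, 9.0 and 88.3 in knockdown and 71.3, 35.9 and 62.2 in wild type, so the groups overlapped, and on 1 array of each group it was within background. The fitted change of Tlr6 was -0.04 with a 95% interval of -1.14 to 1.06 (limma adjusted p 0.965), too wide to tell whether it differed from that of Tlr1. Without knockdown B, the array on which Tlr6 was dimmest, the value was 0.57 (adjusted p 0.213).

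Among the endosomal receptors, Tlr8 and Tlr7, which both bind RNA and lie side by side on the X chromosome, gave different values. Tlr8 (1450267_at) read 11.7, 20.5 and 40.3 in knockdown, within background on each array, and 122.6, 109.7 and 103.8 in wild type, above it on each. It was at least 1.28-fold lower in knockdown (fitted log2 fold change -1.54 ± 0.29 SE, limma adjusted p 0.00259). That bound is on the normalized scale, and as deposited the background of knockdown B, 132, lay above each wild-type signal of Tlr8. Tlr7 had 3 probe sets, and the brightest (1422010_at) read 479.8, 500.6 and 541.1 in knockdown and 434.9, 384.2 and 391.5 in wild type. Its knockdown arrays all lay above its wild-type arrays, as for 29.1% of all probe sets tested, yet the log2 fold change of 0.22 (95% interval -0.03 to 0.46, limma adjusted p 0.173) did not pass. With the values as deposited, without normalization, it was 0.31 with an adjusted p of 0.0463, while the median of all probe sets tested moved from 0.04 to 0.15. The other Tlr7 probe sets read 103.4 to 208.4 and 86.0 to 156.7 in knockdown, overlapped between groups and gave -0.16 and -0.10, with adjusted p of 0.657 and 0.820. One of them (1419848_x_at) carries the suffix that the array's maker gives to probe sets that may bind other transcripts.

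Tlr9, which encodes the receptor for unmethylated CpG DNA, lay above background on all 6 arrays, and its groups overlapped. Its probe set (1422083_at) read 211.6, 294.3 and 269.2 in knockdown and 260.4, 254.8 and 194.5 in wild type, a log2 fold change of -0.02 with a 95% interval of -0.38 to 0.35 (limma adjusted p 0.959). Tlr3, for the receptor of double-stranded RNA, was at or near background. Both of its probe sets were too dim to be tested, with signals of 17 to 46.3 (1422781_at) and 11.3 to 75.4 (1422782_s_at) in knockdown and of 21.3 to 38.4 and 11.6 to 94.4 in wild type. The probe set 1422781_at was within background on all 6 arrays.

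Myd88 was by far the brightest member against background, 44.0 times it in wild type, and its difference was small. Its probe set (1419272_at) read 2029.3, 2354.8 and 2389.1 in knockdown and 2878.2, 2833.5 and 2719.7 in wild type, with no overlap. It fell by 0.27 on the log2 scale, from 2810 ± 81.7 to 2258 ± 199 (SD, n = 3), 1.20-fold lower (SE 0.08, limma adjusted p 0.0292). The call was lost without any 1 wild-type array, with adjusted p of 0.0639 to 0.102, and without the intensity trend in limma's variance (0.128).

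**Figure D2:**
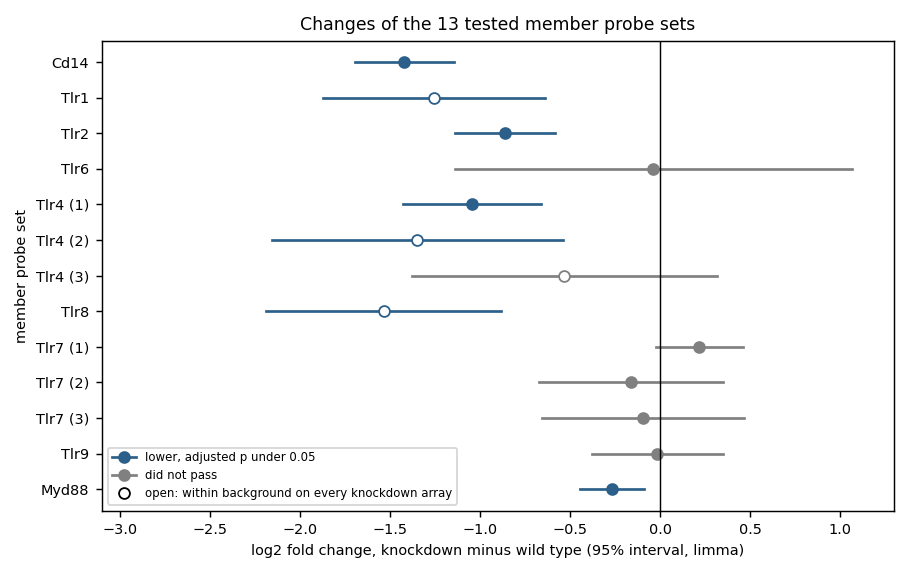
Log2 fold change of each of the 13 tested member probe sets (x axis, knockdown minus wild type) with its 95% interval from limma, ordered by role. Blue marks an adjusted p under 0.05 and grey a probe set that did not pass. Open points mark probe sets within background on every knockdown array, whose fitted change is not a bound. Cd14, Tlr2 and the brightest probe set of Tlr4 lie at -1.42, -0.86 and -1.04, and Tlr9 and the Tlr7 probe sets lie around 0.

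Genes whose values followed a member's most closely over the 6 arrays were ranked by the root mean square difference of log2 values after each was centred on its own mean, for the 2 members brightest in wild type. With only 3 arrays in each group, closeness by this measure mainly reflects a like difference between the groups. Nearest to Cd14 were the receptor tyrosine kinase gene Axl, at 0.0516, Pias3, which encodes an inhibitor of STAT3, at 0.0756, and the complement gene C1qc, at 0.0773. Their log2 fold changes were -1.40, -1.44 and -1.45. Nearest to Myd88 were Kif13b, a kinesin gene, Cox15, of mitochondrial heme A synthesis, and Litaf, for a membrane protein of late endosomes, at 0.0207, 0.0270 and 0.0279. Of these 3, Litaf passed the test, at -0.25 (limma adjusted p 0.00980), a call lost without the intensity trend (0.109).

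The rest of the pathway was described by 8 lists of genes, chosen by role but, like the members, with earlier results of these data known. Their counts are therefore a description and not independent evidence. Each gene was read by its brightest probe set. A call is that of this probe set, and a gene's other probe sets need not have passed. Of 91 genes tested in these lists, 45 fell, 6 rose and 40 did not pass, with a median log2 fold change of -0.34. Of all 14230 genes tested, 17.1% were lower and 18.3% higher, 35.5% in either direction, with a median of 0.03.

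Of the other Toll-like receptors, 1 of 3 tested fell. Tlr13, a mouse receptor for bacterial ribosomal RNA, read 349.0, 314.9 and 333.4 in knockdown and 562.3, 696.3 and 711.3 in wild type, with no overlap, and was 2.01-fold lower (SE of the log2 fold change 0.12, limma adjusted p 0.000141). Tlr5, the flagellin receptor gene, gave -0.32 and Tlr12 0.06, with adjusted p of 0.363 and 0.899. Both were near background, with wild-type means of 103 ± 15.7 and 82.2 ± 33.0 (SD, n = 3).

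Of 9 coreceptor and trafficking genes, 5 fell, 0 rose and 4 did not pass (median -0.53). The lipid receptor gene Cd36, a coreceptor of TLR2 with TLR6, had the largest fall, from 2219 ± 119 to 605 ± 30.9 (SD, n = 3), and its log2 fold change was -1.83 ± 0.08 (SE). Of the 3 tested probe sets of Cd36, 2 were lower and 0 higher. Unc93b1, which carries the endosomal receptors out of the endoplasmic reticulum, changed by -0.53 ± 0.09 and Hsp90b1, a chaperone that folds Toll-like receptors, by -0.57 ± 0.12, the latter not called without the intensity trend (adjusted p 0.0527). Clec7a, for the beta-glucan receptor Dectin-1, changed by -0.56 ± 0.09. The fifth was Ly96, which encodes MD-2 and is named here after its value was seen. It changed by -0.68 ± 0.18 (limma adjusted p 0.0168), with overlapping arrays, and lost its call with the values as deposited (adjusted p 0.0713) and without knockdown C, wild type B or wild type C.

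Of 20 genes for adaptors and proximal kinases, 7 fell, 1 rose and 12 did not pass (median -0.15). Irak2, a kinase of the complex that MYD88 builds, went from 1291 ± 67.5 to 250 ± 32.2 (SD, n = 3), and its log2 fold change was -2.30 ± 0.11 (SE, limma adjusted p 1.76e-07). Ikbke, for a kinase of interferon regulatory factors, changed by -1.49 ± 0.25, Pik3ap1, which links the receptors to PI3 kinase, by -1.32 ± 0.16, and the ubiquitin ligase gene Peli1 by -0.73 ± 0.09. The other 3 that fell were Ticam1, for the TRIF adaptor of TLR3 and TLR4, by -0.40 ± 0.09 (limma adjusted p 0.00837), Ikbkg, for the regulatory IkB kinase subunit, by -0.30 ± 0.07 (0.00865), and the kinase gene Btk by -0.24 ± 0.05 (0.00275). The calls of Ikbkg and Btk were lost without the intensity trend, and that of Ikbkg also without wild type A (adjusted p 0.0514). Of the 6 tested probe sets of Ikbkg, 2 were lower and 0 higher, and of the 4 of Peli1, 2 and 0. Among those that did not pass were Irak1 at 0.20 (limma adjusted p 0.0924), Traf6 at 0.11 (0.576) and the bridging adaptor Tirap at 0.20 (0.231). Without knockdown A, Irak1 was at 0.28 with an adjusted p of 0.00496. The gene that rose was Ikbkb, an IkB kinase, by 0.32 ± 0.08, with 1 of its 4 tested probe sets higher and 0 lower. It did not pass when arrays were scaled to a common median (0.10, adjusted p 0.526), nor without wild type A or the intensity trend. The genes of this list from Ticam1 on were named after their values were seen. Without knockdown A, 4 genes of this list rose.

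Of 9 NF-kB and IRF factor genes, 5 fell, 1 rose and 3 did not pass (median -0.58). Irf7, the factor of type I interferon induction by endosomal receptors, changed by -1.20 ± 0.09 (SE), Irf8, of monocyte and dendritic cell development, by -0.94 ± 0.14, the NF-kB subunit gene Relb by -0.93 ± 0.20 and Irf5, which acts below MYD88, by -0.73 ± 0.17. Of the 2 tested probe sets of Irf5, 1 was lower and 0 were higher. Rela, for the main activating NF-kB subunit and picked with its value in view, rose by 0.56 ± 0.08, from 3649 ± 75.6 to 5137 ± 578 (SD, n = 3; limma adjusted p 0.000349). Of 14 genes listed as inhibitors of the pathway, 8 fell, 1 rose and 5 did not pass (median -0.46). Nfkbie, for an IkB protein, was at least 2.53-fold lower, with 2 of its 3 knockdown values at or below background. The deubiquitinase gene Otud7b changed by -1.57 ± 0.08 and the repressor gene Atf3 by -0.93 ± 0.09. Nfkbiz, for a nuclear IkB protein that is not solely an inhibitor, changed by -1.06 ± 0.10. Sigirr, a TIR-domain protein that restrains IL-1 and Toll-like receptor signalling, rose by 0.65 ± 0.08 and was named after its value was seen.

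Of 19 cytokine, chemokine and other genes that these receptors induce, 11 fell, 0 rose and 8 did not pass (median -0.97). The neutrophil chemoattractant gene Cxcl2 went from 1551 ± 155 to 269 ± 37.9 (SD, n = 3), and its log2 fold change was -2.47 ± 0.12 (SE, limma adjusted p 2.98e-07). Cxcl10, induced by interferon, changed by -2.26 ± 0.15 and Il18, an IL-1 family cytokine gene, by -1.77 ± 0.23, while the monocyte chemoattractant gene Ccl2, with 2 knockdown values at or below background, was at least 3.40-fold lower. Il1b and Tnf, both picked with their values in view, changed by -1.39 ± 0.08 and -0.97 ± 0.31, and the call of Tnf was lost with an offset of 1, with no filter, without the intensity trend and without any 1 wild-type array. Of 12 cytosolic sensors and their partners, 8 fell, 1 rose and 3 did not pass (median -0.71), and 5 fell without knockdown C or without wild type C. Mavs, the adaptor of the RNA helicase sensors, changed by -1.32 ± 0.08 and Sting1, of the cytosolic DNA pathway, by -1.64 ± 0.33. The inflammatory caspase gene Casp1, with 2 knockdown values at or below background, was at least 2.98-fold lower, and Nod1, a sensor of bacterial peptidoglycan, within background on all 3, at least 1.33-fold lower. The call of Nod1 was lost without knockdown C or wild type C. Pycard, the inflammasome adaptor, also picked with its value in view, rose by 0.34 ± 0.07 and was at 0.12 (adjusted p 0.431) when arrays were scaled to a common median. Of the 3 tested probe sets of Pycard, 1 was higher and 0 were lower, and of the 2 of Sting1, 1 was lower and 0 were higher.

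The IL-1 family receptors, whose signalling also runs through MYD88, were the 1 list of the 8 with rises and no falls. Il18rap and Il1rap rose among the 5 tested, 0 fell and 3 failed the test (median 0.83). Il18rap, for the accessory chain of the IL-18 receptor, went from 472 ± 37.4 to 1406 ± 363 (SD, n = 3), and its log2 fold change was 1.45 ± 0.15 (SE, limma adjusted p 5.02e-05). Il1rap, the accessory chain of the IL-1 receptors, went from 184 ± 32.9 to 385 ± 83.7, a log2 fold change of 0.83 ± 0.18. Of the 3 tested probe sets of Il1rap, 1 was higher and 0 were lower, while both of the 2 of Il18rap were higher.

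**Figure D3:**
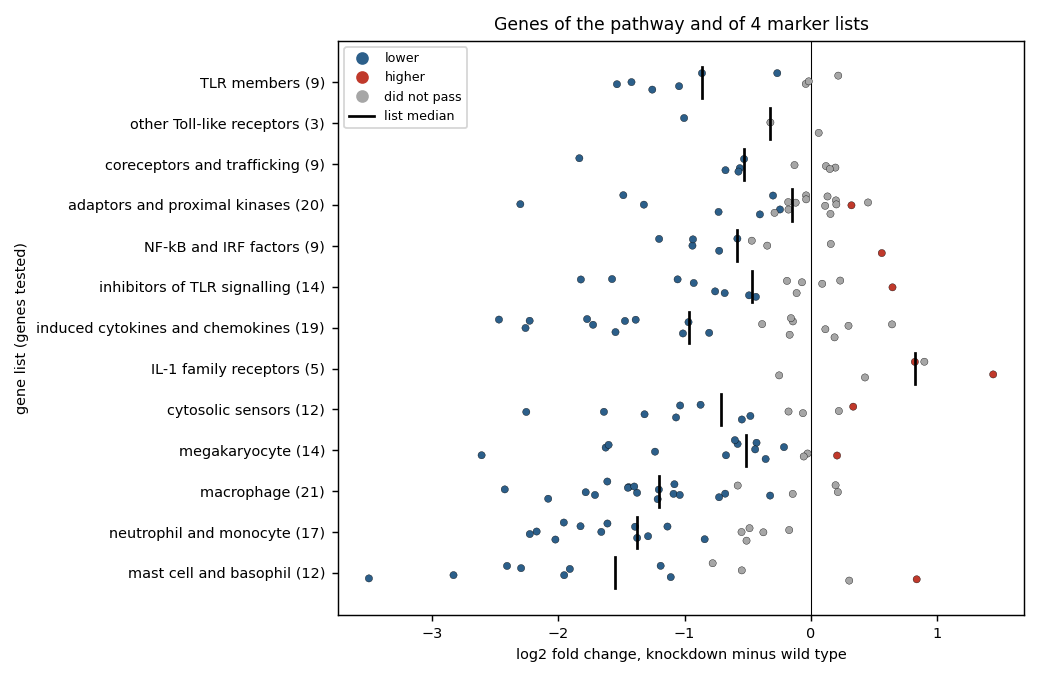
Log2 fold change of each tested gene (points, x axis, knockdown minus wild type) by list, with the number tested in brackets and the list's median as a bar. Blue points were lower and red points higher at an adjusted p under 0.05. The receptors, coreceptors, listed inhibitors and induced genes lie mostly left of 0, the IL-1 family receptors mostly right of it. The macrophage, neutrophil and monocyte, mast cell, and megakaryocyte marker lists have medians of -1.20, -1.38, -1.55 and -0.51.

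Most tested markers of macrophages, of neutrophils and monocytes, and of mast cells and basophils fell. So did those of megakaryocytes, with 11 of 14 lower (median -0.51). Of 21 macrophage markers tested, 17 fell, 0 rose and 4 did not pass (median -1.20), and the summed signal of all 25 was 33033 to 35300 in knockdown and 62680 to 65267 in wild type. The brightest 3 in wild type, Lyz2, Gpnmb and Lgals3, changed by -0.32 ± 0.04, -1.09 ± 0.06 and -0.73 ± 0.06 (SE). Csf1r and Adgre1, the colony stimulating factor receptor and F4/80 that define macrophages, were picked with their values in view and changed by -1.40 ± 0.05 and -1.44 ± 0.08. The tested markers of this list ran from -2.42 for Cd5l, a scavenger receptor family gene, to 0.21 for the lectin gene Cd209f, which did not pass. The macrophage markers Cd163, Marco, Timd4 and Clec4f were within background on all 6 arrays. Neutrophil and monocyte markers numbered 17 tested, of which 12 fell, 0 rose and 5 failed the test (median -1.38), with a summed signal over 18 markers of 3877 to 4269 in knockdown and 12826 to 13447 in wild type. S100a9, S100a8 and Ngp, the brightest, changed by -2.23 ± 0.12, -1.96 ± 0.08 and -2.17 ± 0.10. Of 12 mast cell and basophil markers, 8 fell, 1 rose and 3 did not pass (median -1.55), summed to 2013 to 2308 in knockdown and 4988 to 5662 in wild type. Of these 12, 8 were within background on all 3 knockdown arrays. Hdc, Mcpt1, Mcpt4 and Mcpt8, all among those that fell, passed the filter through their wild-type level, with knockdown means below its limit. Counts and medians of the other marker lists can include such genes too. The one that rose, Kit, is also a gene of progenitors and is named after its value was seen. The part of these cells in the members' values was not tested.

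Of 9 dendritic and plasmacytoid markers tested 2 fell and 0 rose (median -0.12), and of 10 lymphoid markers 2 fell and 0 rose (median -0.12). Of 3 hepatocyte markers 1 fell and 0 rose. The one that fell was Afp, with 2 of its 4 tested probe sets lower and 0 higher. The median of -1.10 was the value of Ttr, which did not pass (limma adjusted p 0.0634). Ttr was within background on all 3 knockdown arrays and passed the filter through its wild-type level. The plasmacytoid marker Siglech and the B cell marker Pax5 were within background on all 6 arrays. The summed signals were 2372 to 2502 in knockdown and 3250 to 3444 in wild type for the 12 dendritic and plasmacytoid markers, 1344 to 2142 and 2399 to 2631 for the 14 lymphoid markers, and 447 to 679 and 1089 to 1246 for the 6 hepatocyte markers. Of 6 erythroid markers 2 fell and 1 rose, with sums of 2522 to 2595 and 5538 to 5924. Without Epor, the erythropoietin receptor gene, which was named after its value was seen and changed by -2.34 ± 0.08, the other 5 summed to 1774 to 1862 in knockdown and 1645 to 1928 in wild type. That sum hides opposite changes, of -0.67 ± 0.12 for Alas2 and 0.35 ± 0.09 for Slc4a1 (SE). The call of Slc4a1 was lost with arrays scaled to a common median, without knockdown C and without any 1 wild-type array. Of 7 endothelial markers 3 rose, namely the receptor genes Kdr, Tie1 and Tek, and 2 fell, namely Lyve1 and Flt1. Lyve1 changed by -0.92 ± 0.14 and Flt1 by -0.57 ± 0.19 (SE). Tek and Flt1 were named after their values were seen. The endothelial sums were 4641 to 5488 in knockdown and 2128 to 2466 in wild type. Of the 14 megakaryocyte markers, 11 fell, 1 rose and 2 did not pass (median -0.51). Xist, transcribed from the inactive X of female cells, was read because Tlr7 and Tlr8 are X-linked, a check added after the members' values were seen. It read 6866.1, 7470.7 and 7500.3 in knockdown and 4922.7, 4840.3 and 4819.9 in wild type, and the Y-linked gene Eif2s3y read 1088.3, 686.2 and 848.8 against 650.2, 732.0 and 584.6. Both were above background on all 6 arrays, and the part of the sex of the embryos was not tested.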

How the data were processed

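Total RNA of 6 samples was measured on 1 Affymetrix mouse array each, with group and letter read from the sample titles. The deposited values are probe set intensities on a linear scale, scaled by the authors to a trimmed mean of 500 (2% off each end), as the values show. The software was not stated in the sources used here. Intensities were taken as log2(signal + 32) and quantile normalized, which removes a shift common to all genes, since array medians spanned 0.346. The 64 control probe sets and those with a mean below the 30th percentile were left out of the test.

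The 31526 others were compared in limma 3.58.1 (R 4.3.3), with a variance trend on intensity and no covariate. Tests were two-sided, and p was adjusted by Benjamini-Hochberg over all 31526. Background was the highest of 27 Bacillus subtilis control probe sets on each array, and a fold is a bound where 2 or 3 arrays of 1 group lay within it. Bounds were taken on the quantile normalized log2 scale with the offset. Annotation named 1 gene for 34945 probe sets, and a GRCm38.p6 gene table changed 0 of these symbols. Matplotlib 3.10.9 drew the figures. The fit was tested on simulated data. Members and lists were chosen with earlier results of these data known. Of each pathway list, up to 4 called genes with the largest changes and no overlap are named, or the 2 brightest where none was called, of each marker list the 3 brightest at most, and others are marked. A comparison of the members' protein sequences was planned but not analysed here. Alternatives were offsets of 1 and 100, 2 other scalings, no filter and a 50th percentile filter, no trend, floored signals, a replicate block, the mean of a gene's probe sets, and each array left out.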

Additional observations from a re-analysis of the deposited data

How the results depend on the processing

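The number of member probe sets that were lower, 7, stayed between 6 and 7 under the other settings, apart from 4 with a filter at the 50th percentile. It was 5 to 7 with 1 array left out. Of the 7, the 50th percentile filter left out those of Tlr1 and Tlr8 and 1 of Tlr4. The probe set of Tlr6 and the third of Tlr4, which had not passed, were left out by it as well. The number that were higher was 0, and 1 with the values as deposited, the brightest of Tlr7. The number of pathway genes that rose, 6, was 6 to 10 with 1 array left out, the highest without knockdown A. With signals floored at the bacterial controls, the log2 fold changes of Tlr1, Tlr8 and the second probe set of Tlr4 were -0.65, -0.47 and -0.67, all still called (limma). The floor replaced every knockdown signal of these probe sets by the array's background and removed their own spread. Those calls thus set wild type against background and are not separate support. Arrays of the same letter showed no visible shared variation, with correlations of deviations of -0.042 to -0.0096, against -0.021 to 0.039 for other pairs. With so few arrays this cannot tell whether a letter marks a shared culture or day. With a replicate block, 7 member probe sets were lower and 0 higher, 45 pathway genes fell and 6 rose. In this balanced design the block leaves every fold change as it is. All values that changed sign, apart from Clec1b, were not called. Tlr6 was at 0.037 with an offset of 100, 0.10 as deposited, 0.20 with floored signals and -0.47 to 0.57 with 1 array left out. Tlr7's dimmest tested probe set was at 0.11 as deposited and -0.33 to 0.026 with 1 array left out, and the middle one at 0.0026 as deposited. Tlr9 was at 0.11 as deposited and -0.12 to 0.091 with 1 array left out, and Tlr12 at -0.037 with floored signals and -0.10 to 0.29. As deposited, Cd4, Itgax, Itga2b, Clec1b and Pf4 were at 0.058, 0.060, 0.28, 0.075 and 0.22. With arrays centred on their medians Itga2b, Pf4 and Irak1 were at 0.081, 0.020 and -0.020, and with floored signals Cd4 was at 0.0026. With 1 array left out, Cd4, Itgax and Itga2b ranged over -0.37 to 0.33, -0.18 to 0.0066 and -0.069 to 0.056. Cd209f ranged over -0.12 to 0.46. Signal over background limits Tlr1, Tlr3, Tlr6, Tlr8 and 3 probe sets of Tlr4.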
